A study of Drosophila melanogaster with 6 samples.

Results

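The 33 genes described here are segmentation, homeobox and neural or mesodermal regulators that are known Polycomb targets in Drosophila melanogaster. They were chosen by name, and all 33 symbols matched a row among the 17612 genes of the deposited count table. Poly-A RNA had been sequenced from hand-dissected imaginal leg discs of third-instar larvae raised at 25 °C, with 20 discs in each library. The labels give 2 groups with 3 libraries each, wild type (WT) and Double. The series states only that its second genotype carries a PRE deletion. Neither the alleles, nor the deleted elements, nor whether WT and Double share a background are named in the labels.

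A PRE is a Polycomb response element, a stretch of DNA to which Polycomb group proteins are recruited. One of the Polycomb complexes places a repressive methyl mark on histone tails and another compacts the marked chromatin, and together they keep developmental regulators silent in cells where an earlier signal had left them off. Gap and pair-rule genes divide the early embryo into segments, neural and mesodermal homeobox genes then give neuroblasts and muscle precursors their identity, and many of these genes are used again later in restricted parts of the imaginal discs.

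The total count ranged from 8818943 to 13605668 per library, so that 1 count equalled 0.0735 to 0.113 CPM (counts scaled to library size, here with edgeR's TMM factors). The 13 leg disc markers examined, among them Dll, hth and bab2, were all detected, at a summed 2138 to 2349 CPM in WT, against 2202 to 2235 CPM in Double. The sums include dac, described below, which lay lower in Double without overlap, so their likeness rests in part on dac. By log2 fold change 9 of the 13 lay above 0 and 4 below. Higher in Double without overlap were 2, Dll and Antp, against 10.3% of all tested genes. Summed trachea and other-disc markers spanned 1.16- and 1.13-fold over the libraries, close to the 1.1-fold of the leg disc markers. The largest part of the trachea sum is verm (562.6 to 688.8 CPM in WT, 610.1 to 733.0 CPM in Double). Of 7 trachea markers 6 lay above 0 and 1 below. That 1, Gasp, read 153.2 to 196.3 CPM in WT, against 115.6 to 131.0 CPM in Double, without overlap. It passed in 3 of the 12 alternative fits described below (DESeq2 adjusted p = 0.006334; edgeR adjusted p = 0.09655 in the main fit). The other-disc sum rests mostly on sd (299.5 to 362.8 CPM in WT, 332.7 to 354.1 CPM in Double). Of the 8 other-disc markers, toy, ey and gl lay lower in Double without overlap, against 9.11% of all tested genes. toy read 14.2 to 19.6 CPM in WT, against 0.271 to 11.4 CPM in Double. By log2 fold change 4 of the 8 lay above 0 and 4 below, and none had an edgeR adjusted p under 0.05 in the main fit. The 4th below 0, eya, read 19.6 to 34.5 CPM in WT, against 10.9 to 19.6 CPM in Double, with overlap. It passed in 1 of the 12 alternative fits described below (edgeR adjusted p = 0.3362 in the main fit). All 8 haemocyte markers lay below 0 by log2 fold change, at a summed 260.3 to 438.1 CPM in WT, against 214.1 to 281.7 CPM in Double. Lower in Double without overlap were 2 of the 8, NimC1 and Pxn, against 9.11% of all tested genes. None passed in the main fit, while DESeq2 called NimC1 lower (adjusted p = 0.02539; edgeR adjusted p = 0.1457). Markers of some other tissues spanned far more. The summed level of 10 fat body markers was 262.0 to 6898 CPM in WT, against 3361 to 13690 CPM in Double, with the lowest value in WT replicate 1, and that of 10 salivary gland markers was 8.84 to 3520 CPM and 1114 to 3295 CPM. Of 8 tested salivary gland markers 7 lay above 0 and 1 below, and none passed in the main fit. Sgs1 read 0.442 to 5.43 CPM in WT, against 109.1 to 182.7 CPM in Double, without overlap (DESeq2 adjusted p = 7.503e-06; edgeR adjusted p = 0.06784). ng2, too low for the main fit, was also higher without overlap (DESeq2 adjusted p = 0.005397). The gene dac, taken as the likely target from background knowledge because the labels name none, read 597.7 ± 16.3 CPM in WT, against 414.0 ± 4.37 CPM in Double (SD, n = 3 each; edgeR adjusted p = 0.003869, or 0.05363 without Double replicate 3). Nothing in the labels says that replicates came from separate crosses, so a p-value here reflects no more than library-to-library spread.

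None of the 33 genes gained expression in Double past the test, and none lost it. In edgeR's quasi-likelihood test over all genes, 0 of the 22 members with enough counts to be tested had an adjusted p under 0.05 in either direction, where 1.49% of 8802 tested genes did (0.545% higher and 0.943% lower in Double). At an unadjusted p under 0.05 stood 4 of the 22 members, lbl, slou, gsb-n and oc, against 12.3% of all tested genes. DESeq2 also called 0 members, of 25 to which it gave an adjusted p, where it called 3.03% of all genes. The median log2 fold change of the 22 members, Double over WT, was 0.09, with 14 above 0 and 8 below, against a median of 0.00 over all tested genes. The remaining 11 members had too few counts to be tested and are described by their counts.

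Many of these regulators were not silent in the leg disc. By their mean over all 6 libraries, 14 members were expressed at 10 CPM or more (42.4%, against 36.8% of all genes in the table), 6 were low at 1 to 10 CPM, 8 very low at 0.1 to 1 CPM, and 5 showed only a trace under 0.1 CPM. No member was without a count in all libraries, whereas 25.7% of all genes were. Below 1 CPM lay 13 members (39.4%), against 50.6% of all genes. Since reads come from whole discs, a gene that is silent in most cells and active in a few cannot be told apart from one that is weakly active in all.

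**Figure D1:**
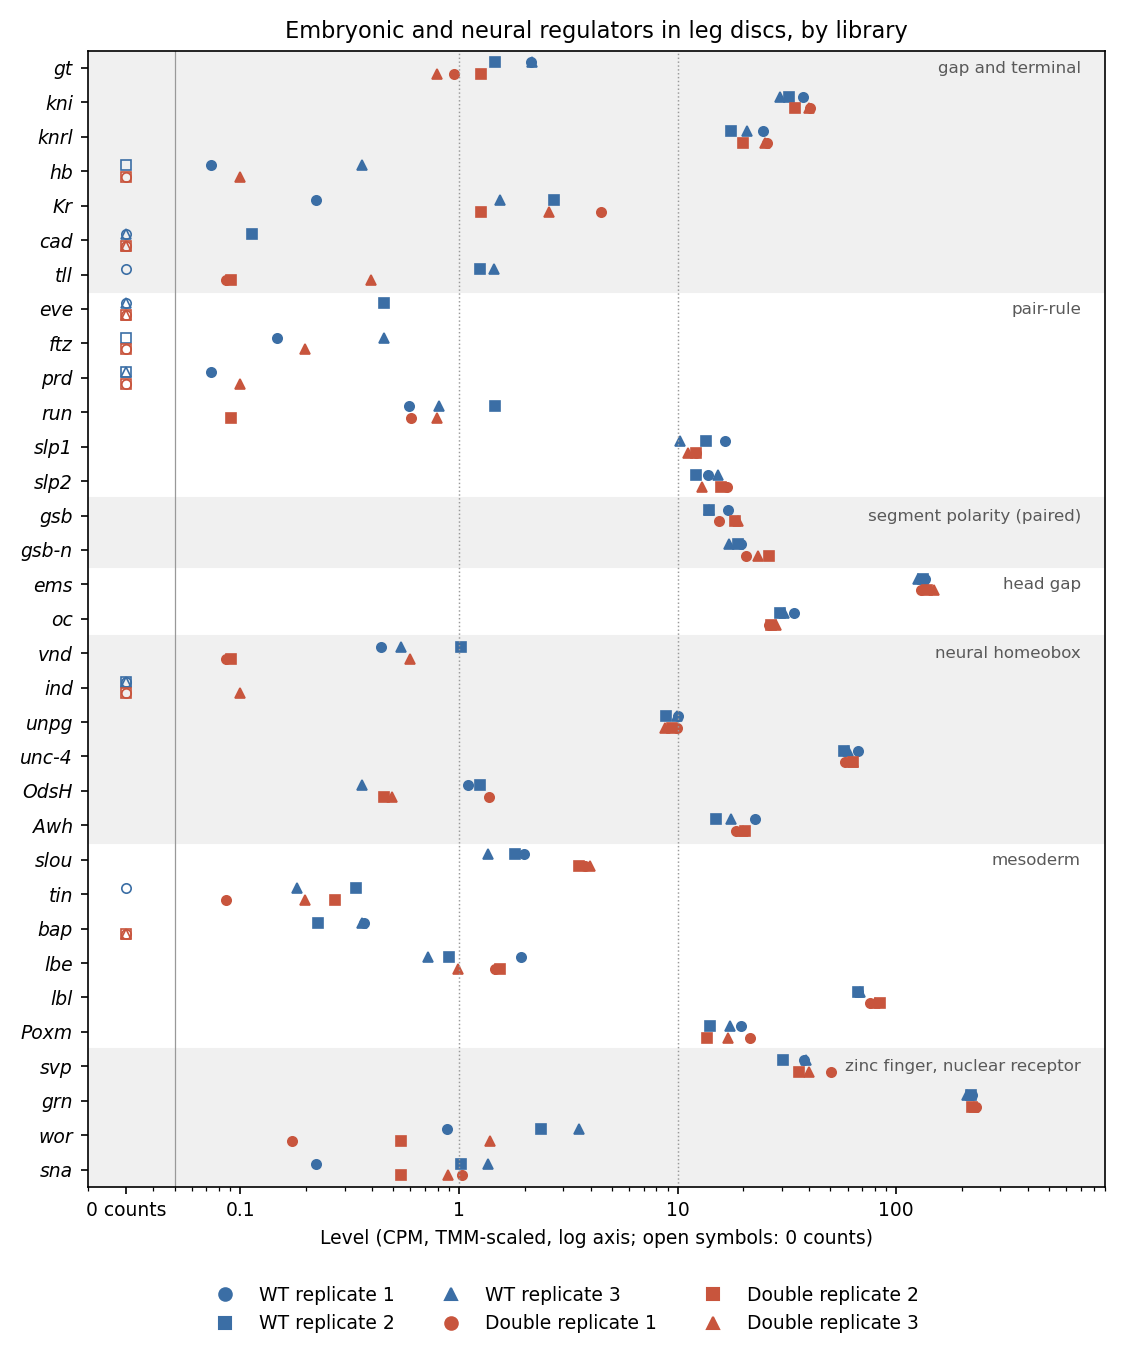
Level of each of the 33 members in each library, in CPM on a log axis, with WT in blue and Double in red and 1 symbol shape per replicate number; open symbols on the left mark libraries with 0 counts, and dotted lines mark 1 and 10 CPM. The 14 expressed members form tight clusters to the right, from about 10 CPM upward, while the 13 members under 1 CPM scatter between 0 counts and 1.47 CPM.

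Among the gap and terminal genes, kni and knrl were expressed, gt and Kr were low, and tll, hb and cad were near or at silence. kni and knrl encode related zinc-finger proteins of the nuclear receptor type, kni a gap gene of the embryo and both used later in tracheal and wing vein patterning. In the order of the replicate numbers, kept throughout, kni read 37.3, 32.4 and 29.4 CPM in WT, against 40.3, 34.6 and 39.9 CPM in Double. The groups overlapped, and the fold change was 1.16 (95% interval 0.969 to 1.38). knrl read 17.5 to 24.7 CPM in WT, against 19.9 to 25.5 CPM in Double, with a fold change of 1.12 (0.876 to 1.42).

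gt, a gap gene of the basic leucine zipper class, read 2.14, 1.47 and 2.17 CPM in WT, against 0.946, 1.27 and 0.794 CPM in Double. Each Double library lay under each WT library. These values rest on 8 to 29 counts per library, and the log2 fold change of -0.94 (SE 0.44) did not pass (edgeR adjusted p = 0.4455). Groups that did not overlap, with Double lower, were found for 2 of the 22 tested members, gt and oc, against 9.11% of all tested genes.

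Kr, the zinc-finger gap gene Krüppel, varied more between replicates than between genotypes, from 0.221, 2.71 and 1.54 CPM in WT to 4.47, 1.27 and 2.58 CPM in Double. Its lowest and highest libraries were also the lowest and highest for the summed fat body markers, which read 262.0, 6898 and 4847 CPM in WT, against 13690, 3361 and 8664 CPM in Double. The log2 fold change of Kr was 0.93 (SE 0.81; edgeR adjusted p = 0.6787), and 0.38 to 1.67 when single libraries were left out. Of the 10 fat body markers 8 were tested and none passed in the main fit, and Adh was at 0 in all 6 libraries. By log2 fold change 7 of the 8 lay above 0 and 1 below. Higher in Double without overlap were 3, Lsp1alpha, Lsp1gamma and Hsl, against 10.3% of all tested genes. The 1 below 0, Fbp2, went against the summed level, at 18.0 to 204.3 CPM in WT, against 3.62 to 19.2 CPM in Double. DESeq2 called Fbp2 lower (adjusted p = 0.03465; edgeR adjusted p = 0.3812). Whether carried-over tissue contributes to Kr was not tested.

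The remaining members of this group left few reads. hb, another zinc-finger gap gene, had 1, 0 and 4 counts in WT, against 0, 0 and 1 in Double. cad, the caudal homeobox gene of the posterior embryo, had 1 count in WT replicate 2 and 0 elsewhere. tll, an orphan nuclear receptor gene of the embryonic termini and the brain, had 0, 11 and 16 counts in WT, against 1, 1 and 4 in Double, so the groups overlapped through WT replicate 1.

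Of the 6 pair-rule genes only slp1 and slp2 were expressed. They encode a pair of forkhead factors and lie 9.7 kb apart on 2L. slp1 read 13.4 ± 3.06 CPM in WT, against 11.8 ± 0.605 CPM in Double, and slp2 13.8 ± 1.58 and 15.2 ± 1.96 CPM (SD, n = 3 each). In both genes the groups overlapped, with fold changes of 0.881 (95% interval 0.662 to 1.17) and 1.10 (0.870 to 1.39).

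The other pair-rule genes stayed at very few counts. eve, a homeobox gene that is a classic Polycomb target, had 4 counts in WT replicate 2 and 0 in each of the other libraries. ftz, another homeobox gene, had 2, 0 and 5 counts in WT, against 0, 0 and 2 in Double. prd, the founding gene of the paired-domain family, had 1 count in WT replicate 1 and 1 in Double replicate 3. run, which encodes a Runt-domain factor, was the most abundant of the 4, with 8, 13 and 9 counts in WT, against 7, 1 and 8 in Double. The groups overlapped in each of the 4 genes. The annotated antisense RNAs that overlap exons of eve and prd had 0 counts in each of the 6 libraries.

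gsb and gsb-n, neighbouring paired-domain genes that act in segment polarity and in the embryonic nervous system, were both expressed. gsb-n read 19.4, 18.9 and 17.2 CPM in WT, against 20.6, 26.1 and 23.4 CPM in Double. All Double libraries lay above all WT libraries, and the log2 fold change of 0.34 (SE 0.12) did not pass (edgeR adjusted p = 0.3019). gsb read 13.9 to 17.0 CPM in WT, against 15.5 to 18.9 CPM in Double, with overlap and a log2 fold change of 0.23 (SE 0.14).

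The head gap gene ems was one of the most abundant members. It encodes the Empty spiracles homeodomain protein, which patterns the embryonic head and the posterior spiracles, and it read 131.3 ± 4.93 CPM in WT, against 139.1 ± 9.89 CPM in Double (SD, n = 3 each). Its 95% interval for the fold change was 0.948 to 1.18. oc, the orthodenticle homeobox gene of the head, read 34.0, 29.5 and 30.8 CPM in WT, against 26.2, 26.8 and 28.1 CPM in Double. The Double libraries lay below the WT libraries without overlap. The difference was small, at a fold change of 0.857 (95% interval 0.743 to 0.989), and did not pass the correction (edgeR adjusted p = 0.3700).

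Among the neural homeobox genes, unc-4, Awh and unpg gave steady levels, while vnd, ind and OdsH did not reach 1 CPM on average. unc-4, which specifies neurons, read 67.0, 57.9 and 60.5 CPM in WT, against 58.3, 63.4 and 63.6 CPM in Double. The group means were 61.8 and 61.8 CPM, and the 95% interval of the fold change was 0.879 to 1.13. Awh, a LIM homeobox gene known from abdominal histoblasts and salivary imaginal cells, read 18.4 ± 3.86 and 19.6 ± 0.924 CPM, and unpg, a homeobox gene of the nervous system, read 9.59 ± 0.674 and 9.34 ± 0.580 CPM (SD, n = 3 each).

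vnd and ind divide the embryonic neuroectoderm into columns. vnd had 6, 9 and 6 counts in WT, against 1, 1 and 6 in Double, so the groups overlapped through Double replicate 3. The gene spdi, on the opposite strand within the span of vnd, had 1560 to 2163 counts per library but shares no exon sequence with it. ind had 0 counts in WT, which allows up to 0.0896 CPM (3 counts over the group, for counting error only), and 1 count in Double, in replicate 3.

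The mesodermal regulators included the members with the smallest p. lbl, the late ladybird homeobox gene, which specifies muscle and heart precursors in the embryo, read 67.0, 66.6 and 68.5 CPM in WT, against 76.0, 84.4 and 80.4 CPM in Double. The WT libraries agreed closely and every Double library lay above them. The fold change was 1.19 (95% interval 1.07 to 1.32), and it did not pass the correction (edgeR adjusted p = 0.1429; range over the 12 alternatives 0.1312 to 0.4466). slou, the S59 homeobox gene of muscle founder cells, was the member with the greatest fold difference upward. It read 1.99, 1.81 and 1.36 CPM in WT, against 3.79, 3.53 and 3.97 CPM in Double, on 15 to 27 and 39 to 44 counts per library. The groups were well separated, with a fold change of 2.18 (95% interval 1.27 to 3.75), but the adjusted p was 0.2188 in edgeR and 0.1922 to 0.5450 over the alternatives.

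Groups that did not overlap, with Double higher, were found for 3 of the 22 tested members, slou, lbl and gsb-n, against 10.3% of all tested genes. The muscle and myoblast markers gave no common direction beside lbl and slou: of 10, 4 lay above 0 and 6 below, none passed, none was at 0 in any library. Lower in Double without overlap were 4 of the 10, Mlc1, Mlc2, wupA and twi, against 9.11% of all tested genes. Mlc1, Mlc2 and wupA, which encode myosin light chains and a troponin, stood at log2 fold changes of -2.16, -0.67 and -1.66. Each of these 3 had an unadjusted p under 0.05, as did 12.3% of all tested genes. Mhc lay at -1.32, with overlap. The summed level of the 10 was 447.1 to 548.3 CPM in WT, against 570.4 to 584.8 CPM in Double, without overlap, but that order rests on sls, a titin-like muscle gene, at 221.1 to 341.4 and 366.5 to 391.1 CPM. Without sls the sum was 205.7 to 225.9 CPM in WT, against 190.4 to 206.7 CPM in Double. Among them the myoblast gene twi read 24.2 to 29.5 CPM in WT, against 23.1 to 23.5 CPM in Double. Whether the share of myoblasts bears on lbl or slou was not tested.

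bap, the NK homeobox gene of the visceral mesoderm, was the only member detected in every library of one group and in none of the other. It had 5, 2 and 4 counts in WT and 0 in each Double library. Its pooled WT level, 0.329 CPM, was 3.59-fold the floor of 3 counts over the Double group, 0.0916 CPM. That ratio leaves out the counting error of the 11 WT counts and the spread between libraries, so it is no lower bound. With 11 counts in all, bap was outside the test. In edgeR without a count filter, which called 1.35% of 13087 genes, its adjusted p was 0.2723. Lower in Double without overlap was 1 of the 13 members under 1 CPM, against 4.3% of 4395 genes with a count and under 1 CPM. tin, the heart gene that lies 6.9 kb away, had 0, 3 and 2 counts in WT, against 1, 3 and 2 in Double. Poxm, a paired-domain gene of the somatic mesoderm, was expressed at 17.0 ± 2.68 and 17.4 ± 3.89 CPM (SD, n = 3 each). The gene Ctr1B overlaps 181 bases of its exons on the opposite strand, with 4 to 38 counts per library.

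**Figure D2:**
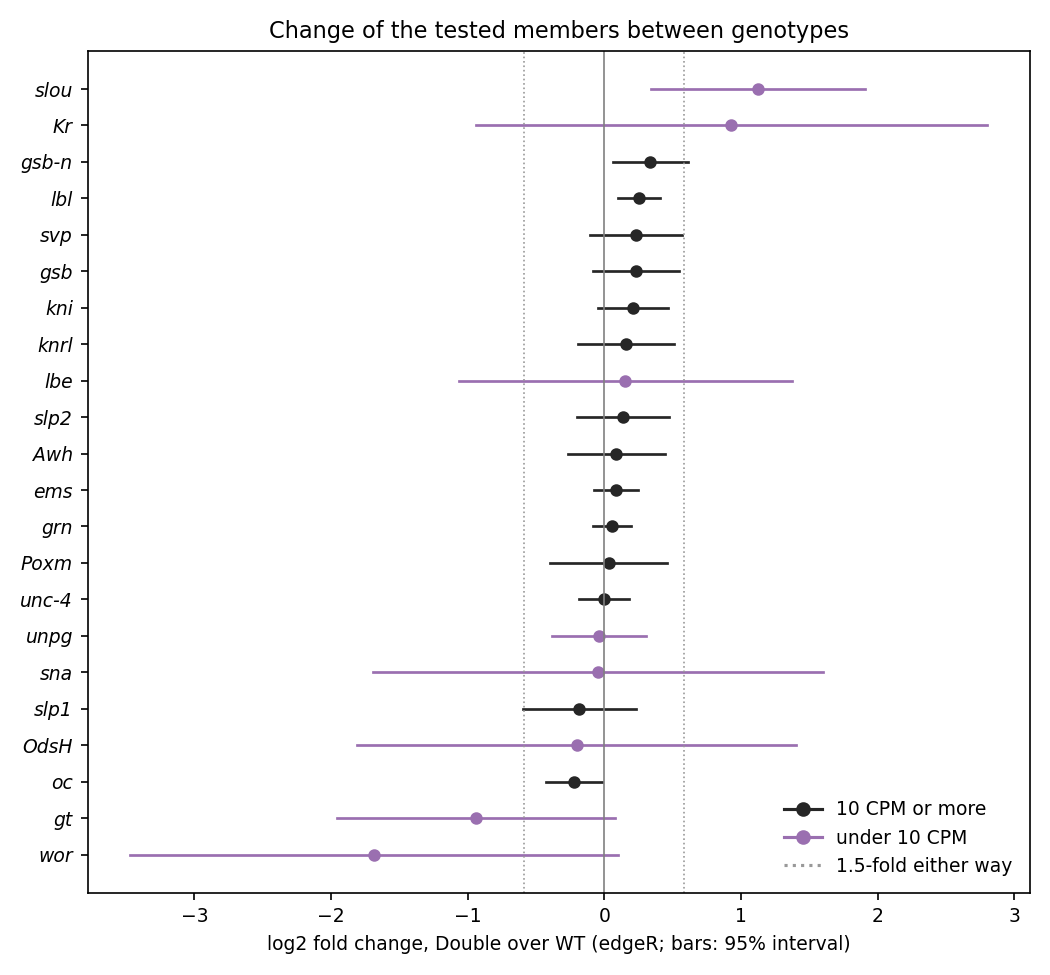
log2 fold change of Double over WT for the 22 tested members, with 95% intervals from edgeR, sorted by size; black marks members at 10 CPM or more, purple those below, and dotted lines a 1.5-fold change. The black intervals are narrow and 12 of 14 lie within 1.5-fold, while slou at 1.12 and wor at -1.69 mark the extremes among the low members.

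In the last group, grn and svp were expressed, wor was low and sna very low. grn, which encodes a GATA factor, read 217.8 ± 5.61 CPM in WT, against 226.3 ± 5.25 CPM in Double (SD, n = 3 each), with a 95% interval for the fold change of 0.945 to 1.14. It had the smallest spread of the expressed members over the 6 libraries, 1.10-fold. svp, an orphan nuclear receptor gene of the COUP family, had the widest, 1.66-fold, at 30.3 to 38.9 CPM in WT, against 35.8 to 50.2 CPM in Double.

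wor and sna encode Snail-type zinc-finger repressors of neuroblasts and, for sna, of the embryonic mesoderm. wor read 0.884, 2.37 and 3.53 CPM in WT, against 0.172, 0.542 and 1.39 CPM in Double. The lowest WT library lay below the highest Double library, and the log2 fold change of -1.69 (SE 0.78; edgeR adjusted p = 0.4306) was the most negative among the tested members. It was -2.64 without Double replicate 3 and -1.21 without WT replicate 3. The summed level of 12 neuron and glia markers was 95.9, 208.3 and 260.6 CPM in WT, against 126.6, 93.0 and 168.6 CPM in Double. WT replicates 2 and 3 and Double replicate 3 held the 3 highest values of both, and the same 3 libraries held the highest values of tll and, in another order, of vnd. Of the 12 markers 0 passed the test and 11 lay below 0. VGlut was at 0 in WT replicate 1, and Gad1 was at 0 in WT replicate 1 and Double replicate 2. Not all followed the sum. repo and moody spanned only 1.38- and 1.40-fold over the libraries. Syt1, the marker above 0 (0.19), read 1.77, 20.5 and 22.8 CPM in WT, against 22.1, 7.32 and 21.4 CPM in Double. The part of neural tissue in wor, tll and vnd was not tested. sna, which read 0.221 to 1.36 CPM in WT, against 0.542 to 1.03 CPM in Double, had a log2 fold change of -0.04 (SE 0.72). On the dac arm, 2L, sna and wor are the members closest to dac, at 0.988 and 1.04 Mb, and cad, prd, slp1 and slp2 lie 4.28 Mb or more away.

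**Figure D3:**
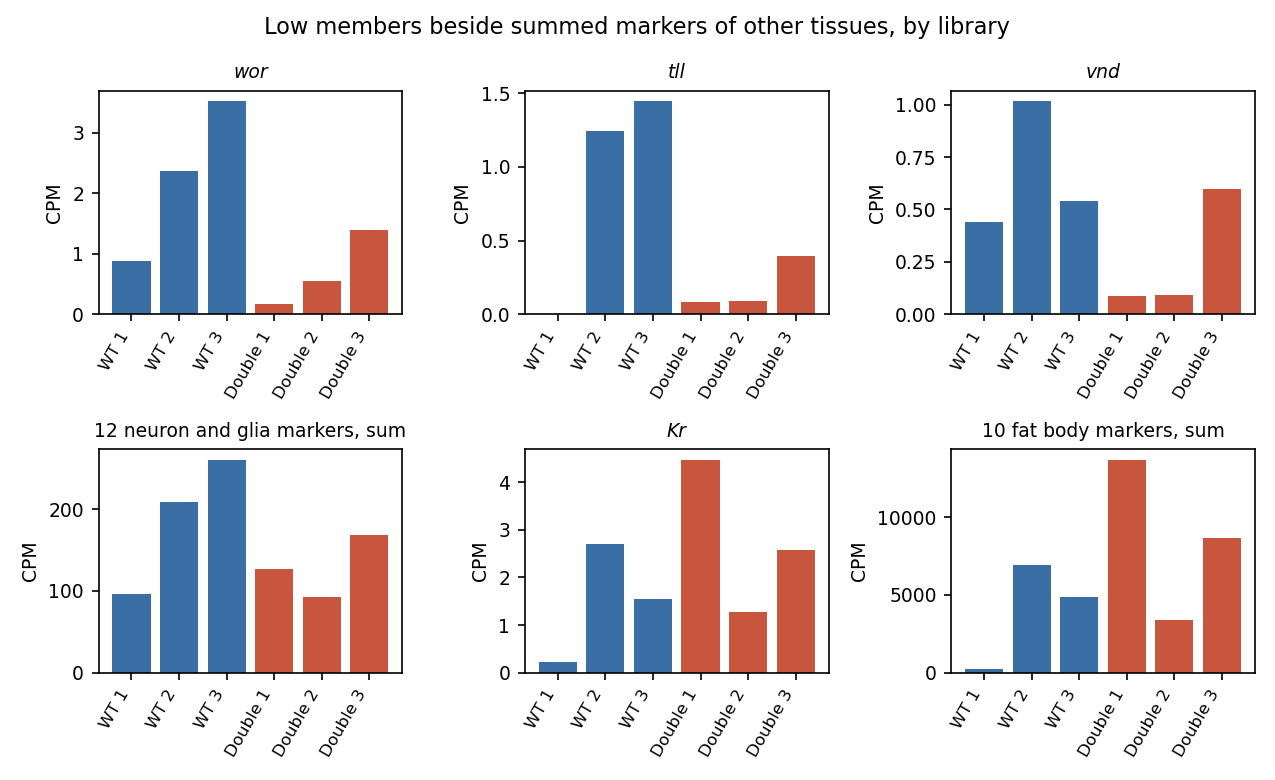
Level of wor, tll, vnd and Kr in each library, in CPM from 0, beside the summed CPM of 12 neuron and glia markers and of 10 fat body markers, with WT in blue and Double in red. The neuron and glia sum is highest in WT replicates 2 and 3 and Double replicate 3, as are wor and tll, and both Kr and the fat body sum are lowest in WT replicate 1 and highest in Double replicate 1.

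Among the members under 1 CPM there was no general gain in Double. The mean level was higher in Double for 3 of these 13 genes (23.1%), prd, tin and ind, against 44% of all genes that had a count and lay under 1 CPM. Each of the 5 trace members, hb, cad, eve, prd and ind, had at most 1 count in any Double library. The level classes were set by the mean over all 6 libraries, Double included. A member with a large gain would have left its class, so low Double counts follow in part from that choice. Together the 13 members gave 41, 63 and 65 counts in WT, against 38, 17 and 39 in Double. For cad, eve and bap, with 0 counts in Double, counting error alone allows up to 0.0916 CPM there. For the other members under 1 CPM larger gains could go undetected. Of the 2 that were tested, OdsH had a 95% interval of the fold change of 0.285 to 2.65 and sna of 0.310 to 3.04.

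For the expressed members the data bound the change closely. Of the 14, 11 had a log2 fold change above 0 and 3 below, where 4410 of all 8802 tested genes lay above 0. The changes of the 14 lay between -0.22 and 0.34 with SEs of 0.06 to 0.19. For 12 of them the 95% interval lay within 1.5-fold in both directions. The exceptions were slp1, with a lower bound of 0.662, and gsb-n, with an upper bound of 1.52. For the 8 tested members under 10 CPM the SEs were 0.15 to 0.81, and unpg was the only one of them with an interval within 1.5-fold.

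Per exon length the members spanned a wide range. grn and ems stood together at the top in WT, at 53.2 ± 1.37 and 53.0 ± 1.99 CPM per kb of merged exons (SD, n = 3 each), not separable by their spread, and each above 92.0% of all annotated genes in the table. lbl followed at 24.6 ± 0.374, unc-4 at 20.6 ± 1.57 and kni at 14.9 ± 1.81 CPM per kb. slp1, gsb, Awh and gsb-n lay between 9.40 and 8.27 CPM per kb and overlapped within their spread, and Poxm, svp, oc, slp2, unpg and knrl lay between 6.62 and 5.38 CPM per kb. The length merges the exons of all annotated transcripts, which lowers the value of genes with long unused exons.

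Several members are neighbours in the genome (within 100 kb), and some neighbours differed sharply in level. On 3R the NK homeobox genes tin, bap, lbl, lbe, C15 and slou lie within 178 kb, from 21378977 to 21557182 (dm6). In that order they stood at 0.104, 0.220, 24.6, 0.519, 12.9 and 0.643 CPM per kb in WT. By their CPM class, expressed genes (lbl, C15) were thus interspersed with low (lbe, slou) and very low (tin, bap) ones. lbl exceeded lbe, its paralogue 7.4 kb away on the same strand, 47.3-fold in WT and 50.1-fold in Double. lbe had a log2 fold change between genotypes of 0.15 (SE 0.53), and it read 0.723 to 1.92 CPM in WT, against 0.993 to 1.54 CPM in Double.

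On the X chromosome unc-4 (17768569 to 17778708) exceeded OdsH, a homeobox paralogue 12.3 kb away that is known from hybrid male sterility, 29.4-fold per kb in WT and 34.3-fold in Double. OdsH read 1.11, 1.24 and 0.362 CPM in WT, against 1.38, 0.452 and 0.496 CPM in Double, with overlap and a log2 fold change of -0.20 (SE 0.70). The OdsH level in Double rests on 1 library: without Double replicate 1 the ratio there was 57.6-fold. Differences within the remaining pairs were smaller. gsb and gsb-n differed 1.10-fold per kb in WT and 1.02-fold in Double, slp1 and slp2 1.60- and 1.28-fold, and kni and knrl, 71.7 kb apart, 2.77- and 2.87-fold. lbl, unc-4, kni and slp1 each exceeded their neighbour in 6 of 6 libraries. wor exceeded sna, 51.0 kb away, 1.96-fold per kb in WT, but in Double the ratio was 0.64, or 1.01 without Double replicate 1 and 0.341 without Double replicate 3. bap and tin, on 11 and 5 counts in WT, had a ratio of 2.11 there, from 1.3 to 4.64 with single WT libraries left out, and of 0 in Double. These ratios describe the libraries and were not tested.

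**Figure D4:**
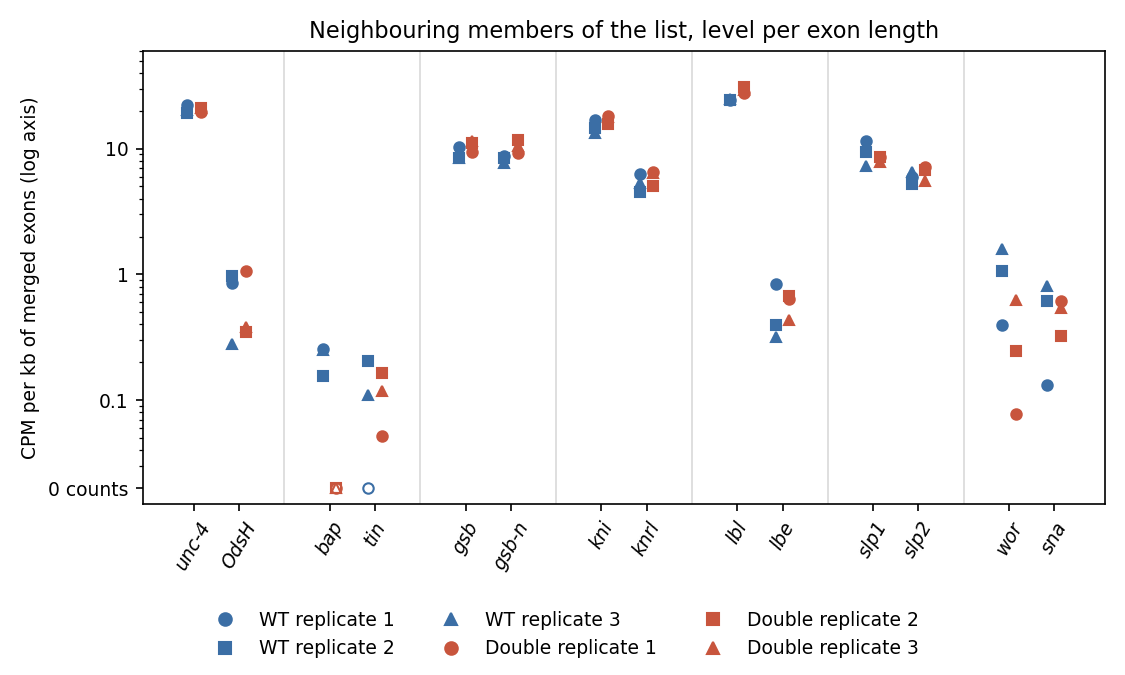
Level per kb of merged exons of neighbouring members in each library, on a log axis, with WT in blue and Double in red; open symbols at the bottom mark 0 counts. lbl and unc-4 stand far above lbe and OdsH in all 6 libraries, whereas gsb and gsb-n, slp1 and slp2, and kni and knrl lie within 2.87-fold of each other on average in each group. wor lies above sna in each WT library but in only 1 Double library, and bap has counts in WT alone.

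Other regulators of the same kind gave the same count. Of 50 tested genes in 3 further lists of Polycomb-target regulators, 0 passed the edgeR test, where 1.49% of all tested genes did. At an unadjusted p under 0.05 stood 7 of the 50 (14%), against 12.3% of all tested genes. In the segmentation list 0 of 19 passed (median log2 fold change 0.07), with Doc3, a T-box gene, at 0.32 (SE 0.15) and the selector gene en at 0.17 (SE 0.08). In the neural and mesodermal list 0 of 25 passed (median -0.08). Its member with the smallest p was Dbx, a homeobox gene of neuroblast lineages, which read 1.03, 1.58 and 1.18 CPM in WT, against 0, 0 and 0.199 CPM in Double (edgeR adjusted p = 0.1051). Dbx was called lower by DESeq2 (adjusted p = 0.04863). eyg, a Pax gene, followed at 0.38 (SE 0.13).

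Of 6 tested Hox genes 0 passed, with Scr at -0.25 (SE 0.09) and Antp at 0.29 (SE 0.12). The Polycomb group genes themselves were expressed throughout: 17 of 17 were tested, 0 passed, and their log2 fold changes lay between -0.11 and 0.20. At an unadjusted p under 0.05 stood 1 of the 17 (5.88%), against 12.3% of all tested genes. Among them Sfmbt, a subunit of the PRE-binding complex, was at 0.20 (SE 0.07) and Su(z)12, a subunit of the methylating complex, at 0.17 (SE 0.09).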

How the data were processed

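The deposited table holds raw counts per gene for 6 libraries, made by the authors. Per the submitters' processing notes, the build was dm6, and the tools named, without order or role, were HTSeq, STAR 2.7.0 and DESeq2. The libraries were strand-specific, per the labels' protocols, but the sources used here do not give whether counting used the strand, the annotation, or any filter. Positions, symbols and merged exon lengths come from Ensembl release 115 (BDGP 6.54, dm6 coordinates), which matched 17540 of 17612 genes.

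Counts of replicates differed beyond sampling noise, with a chi-square of 9.49 to 38.8 per degree of freedom, so each library was 1 sample. Genotypes were compared with edgeR 4.0.16 (R 4.3.3), by its quasi-likelihood test with TMM factors, robust dispersions, filterByExpr and group as the only term, with Benjamini-Hochberg adjustment over 8802 genes and a threshold of 0.05. It was checked on simulated data. Standard errors are the log2 fold change divided by the root of F, and 95% intervals use its t quantiles. Floors take 3 counts and, like all counting limits, cover counting error only. Of 183 distinct names in the lists, 1 was not matched.

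The members and lists were chosen with earlier results of these data known, as were the tests. All members are named. Of each further list, any gene past the threshold and the 2 tested genes with the smallest p are named. twi, Adh, Fbp2, sls, Mlc1, Mlc2, wupA, VGlut, Gad1, C15, spdi and Ctr1B were named after their values were seen. So were Mhc, Syt1, repo, moody, sd, toy, ey, gl, eya, verm, Gasp, NimC1, Pxn, Sgs1, ng2, Lsp1alpha, Lsp1gamma and Hsl. The alternatives were RLE factors, library totals, no count filter, DESeq2 1.42.0, a minimum of 1 CPM in 3 libraries, the replicate number as a block, and each library left out. Leaving libraries out of the neighbour ratios, and sls out of the muscle sum, was chosen after seeing the data. Python 3.11.15, SciPy 1.17.1, pandas 2.3.3 and matplotlib 3.10.9 made tables and figures.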

Additional observations from a re-analysis of the deposited data

How the results depend on the processing

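The number of members past the test was 0 under each of the 12 alternatives, and the lowest adjusted p of any member over them was 0.1312. The number of changed genes over the whole table was 312 with DESeq2, against 131, and 46 to 157 when single libraries were left out. The libraries whose omission lowered it most were Double replicate 3 (46), WT replicate 2 (64), Double replicate 1 (67) and Double replicate 2 (69). Leaving out a library also lowers the power of the test. The other regulator lists gave 1 call with DESeq2, Dbx, and 0 otherwise. Of 264 member values under the alternatives 250 kept their direction. The log2 fold change of sna was 0.11 with the replicate block. When single libraries were left out it ranged from -0.53 to 0.46 for sna, -0.046 to 0.062 for unc-4, -0.92 to 0.069 for OdsH, -0.035 to 0.27 for Awh, -0.11 to 0.71 for lbe and -0.16 to 0.18 for Poxm. The causes of these shifts were not tested. By level per kb in place of CPM 19 of 33 members kept their class, and 5 were at 10 or more. With single libraries left out 30 to 33 kept it, and the count of members under 1 CPM with a higher mean in Double was 2 to 4. Deviations of same-numbered libraries correlated at -0.07, -0.25 and 0.39, against -0.45 to 0.42 for libraries with different numbers. The numbers were not taken as pairs, though with 3 libraries per group these correlations cannot exclude pairing. The block gave 166 changed genes, and 0 members. Depth limits all statements on members under 1 CPM.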
